A study of Mus musculus with 12 samples.

Results

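The Notch receptors Notch1, Notch2 and Notch4, the ligands Dll1, Dll4, Jag1 and Jag2, and the target genes Hes1, Hey1 and Heyl were followed in endothelial cells sorted from mouse mesentery and epididymal fat. These 10 genes were found by their symbols among the 27825 genes of the deposited table, and all 10 entered the tests. The cells were taken from male ROSA26-eYFP+/+ Cdh5-CreERT2+ mice, in which tamoxifen lets a Cre recombinase made under control of the endothelial gene Cdh5 turn on a yellow fluorescent protein. Every animal, control or not, carried both alleles and ate tamoxifen feed for 2 weeks from 6 weeks of age, and all tissue was digested with actinomycin D, an inhibitor of transcription. From 8 weeks the animals ate normal chow (NC) with 5.8% fat or a high fat diet (HFD) with 60% fat, over 12 to 13 weeks. Each library holds cells pooled from 6 mice. There are 4 groups of 3 libraries with letters A, B and C: mesentery on chow, mesentery on HFD, epididymal fat on chow and epididymal fat on HFD. The protocol mentions 2 independent replicates, and its relation to the 3 letters is not given, so n = 3 counts libraries and the p-values measure the spread between libraries only.

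Notch receptors are cut after they bind a ligand on a neighbouring cell, and the freed inner part joins the DNA-binding protein RBPJ to switch on genes of the Hes and Hey families. In blood vessels this signal is known for setting arterial identity, for holding back new sprouts and for joining endothelium to the smooth muscle around it. Notch1 and Notch4 are the endothelial receptors and Dll4 the main endothelial ligand, whereas Notch3 is the receptor of smooth muscle cells and pericytes, together called mural cells.

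Library totals ran from 8348897 to 25397963 reads on the listed genes, and 3 reads were worth 2.12 to 4.22 normalized counts. The sorted cells carried endothelial RNA, but also RNA of other cells. Summed over the 13 genes of a pan-endothelial list (Cdh5, Pecam1, Tek and others), normalized counts were 132827 to 194791 in mesentery on chow and 126592 to 145084 in mesentery on HFD. The same sum was 90740 to 107470 in epididymal fat on chow and 50278 to 95512 on HFD. A macrophage list of 10 genes summed to 1627 to 24936 across the 6 mesentery libraries, to 6380 to 88023 in epididymal fat on chow and to 138765 to 349306 there on HFD. Between the tissues 12.8% of all genes tested passed the threshold given below on chow and 8.34% on HFD. Of 8 fibroblast genes, 6 were higher in epididymal fat than in mesentery past the threshold on chow and 7 on HFD, and of 7 adipocyte genes, 7 were higher on chow and 0 on HFD. The part of these cells in the results below was not tested. Genes of the exocrine pancreas summed to 20108 to 143086 in mesentery and to 351 to 814 in epididymal fat. Each group holds 1 library numbered 87 or 88 in the descriptions, where the others carry 50 to 53. Fits within libraries numbered 50 to 53, given below, leave that library out of each group. Between tissues they called 4507 of all genes on chow in place of 2843, and 2707 on HFD in place of 1854. Mesentery replicate C on chow (number 87) stood apart from replicates A and B in several genes below.

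The promoters of Notch4 and Jag2 are shown first. Notch4 is the gene with a RefSeq window that passed a test below, and the levels of Jag2 ran closely with it over the 12 libraries (Pearson's r 0.96). Each run is the 250 bases before the RefSeq transcription start (build GRCm38.p6), written 5′ to 3′ on the gene's strand. RefSeq windows matched 7 of the 10 genes; Hey1, Heyl and Hes1 had none. Capitals mark 4 short motifs searched on both strands: TGGGAA, a core bound by RBPJ; AGGAAG, bound by ETS factors; ACAATG, bound by SOX factors; and the GC box GGGCGG, whose matches overlap in Jag2. The shares of all 32851 promoter windows of this length that hold them are 21.6%, 29.5%, 10.7% and 32.7% in that order.
Notch4, chr17:34564045-34564294, plus strand: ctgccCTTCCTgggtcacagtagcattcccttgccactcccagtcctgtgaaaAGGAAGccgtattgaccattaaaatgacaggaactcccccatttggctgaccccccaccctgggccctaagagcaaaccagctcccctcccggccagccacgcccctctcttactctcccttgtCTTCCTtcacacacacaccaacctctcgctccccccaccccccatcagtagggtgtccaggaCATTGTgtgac
Jag2, chr12:112929496-112929745, minus strand: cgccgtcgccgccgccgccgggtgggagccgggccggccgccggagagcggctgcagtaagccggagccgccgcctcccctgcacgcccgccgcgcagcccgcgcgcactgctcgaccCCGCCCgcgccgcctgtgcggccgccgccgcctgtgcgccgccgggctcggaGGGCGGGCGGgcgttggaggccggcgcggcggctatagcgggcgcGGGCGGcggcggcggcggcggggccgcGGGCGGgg
The Notch4 window held 3 ETS matches, 1 SOX match and 0 GC boxes, with a GC content of 58.4%. The Jag2 window held 5 GC boxes and 0 ETS matches, with a GC content of 87.2%. The RBPJ letters occurred in none of the 8 windows of the 7 matched genes. Nothing about binding follows from these matches.

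Levels were compared between genes only after division by exon length (normalized counts per kilobase of merged GENCODE M21 exons). Notch4 was the most abundant receptor in all 12 libraries. Per kilobase it averaged 246 ± 89.5 in mesentery on chow and 114 ± 23.3 in epididymal fat on chow (SD, n = 3), against 56.1 ± 18.4 and 33.7 ± 10.5 for Notch1. The median ratio of Notch4 to Notch1 over the libraries was 3.79, with a range of 2.19 to 6.29. Notch2, a receptor found in many cell types, lay below Notch1 in 12 of 12 libraries. Among the ligands Dll4 was highest in 12 of 12 libraries, with a median ratio of 4.31 to Jag2, the next ligand. Jag2 exceeded both Dll1 and Jag1 in 12 of 12 libraries, and Dll1 exceeded Jag1 in 10 of 12. Of the targets, which encode transcriptional repressors, Hes1 was above Hey1 in 12 of 12 libraries (median ratio 3.41) and Hey1 above Heyl in 12 of 12. The order of receptors and ligands was thus the same in both tissues and on both diets for these pairs, except Dll1 over Jag1.

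**Figure D1:**
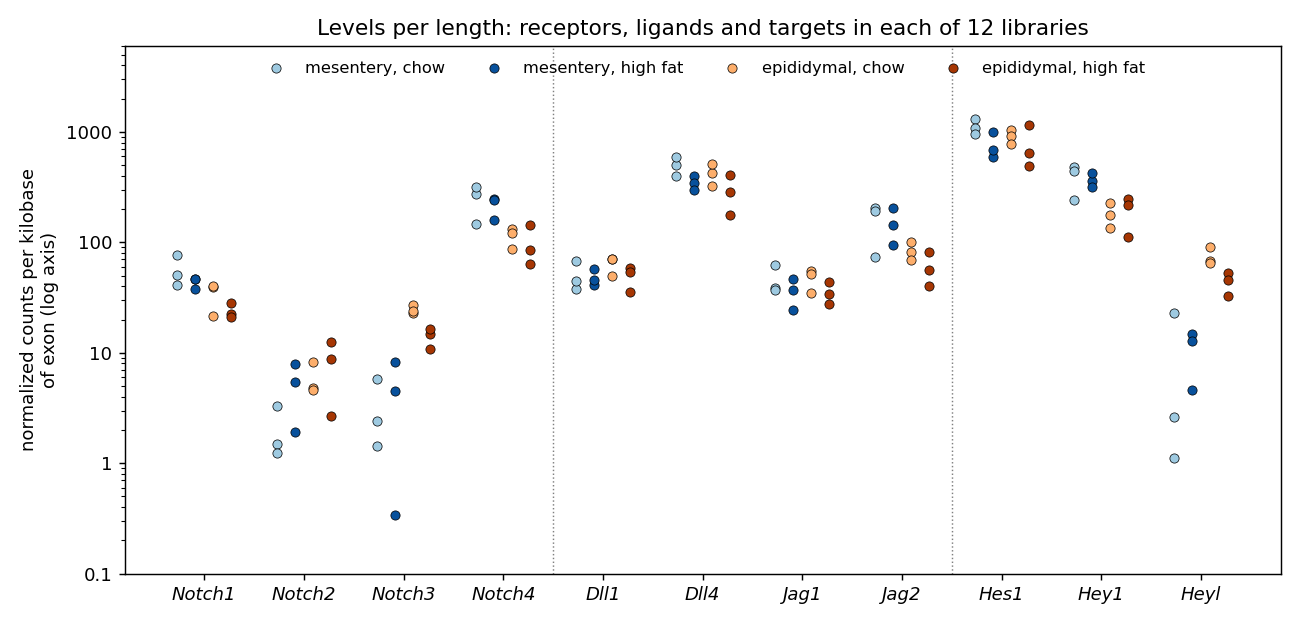
Normalized counts per kilobase of exon (y, log axis) of 4 receptors (Notch3 added), 4 ligands and 3 targets; each point is 1 library and the colours give the 4 groups of 3. Notch4 is the highest receptor and Dll4 the highest ligand in all 12 libraries, and Heyl spreads most widely among the targets.

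On chow, epididymal fat differed from mesentery past the threshold (limma, Benjamini-Hochberg adjusted p under 0.05) in 2 of the 10 genes: Heyl was higher and Hey1 lower. Of all 22238 genes tested, 12.8% passed in that contrast. At an unadjusted p under 0.05, 5 of the 10 genes passed, against 25.4% of all genes. On HFD 1 of 10 genes passed, Notch4, which was lower in epididymal fat, against 8.34% of all genes. Unadjusted, 5 of 10 passed there, against 21.0%. The median log2 change of the 10 genes, epididymal fat minus mesentery, was -0.27 on chow and -0.20 on HFD, beside -0.08 and 0.06 over all genes tested. Groups of libraries did not overlap for 5 genes on either diet (background 28.7% and 26.4%). Notch1, Notch4, Hey1 and Heyl separated the tissues on both diets, Notch2 on chow and Jag2 on HFD.

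Among the receptors, Notch4 was the clearest. Its normalized counts in mesentery were 2187, 2576 and 1178 on chow and 1977, 1928 and 1276 on HFD (in the order of the letters). Epididymal libraries had 1071, 970 and 707 on chow and 509, 1153 and 684 on HFD. Every mesentery library lay above every epididymal library, though by little between mesentery replicate C on chow and epididymal replicate B on HFD. The log2 change between tissues was -1.06 on chow (SE 0.33, adjusted p 0.0550, limma; -1.22 and 0.0143 within libraries numbered 50 to 53) and -1.20 on HFD (SE 0.33, adjusted p 0.0429). The call on HFD was lost without mesentery replicate A (log2 change -1.09, adjusted p 0.142) or B (-1.11, 0.158) and without epididymal replicate A (-0.93, 0.131) or C (-1.14, 0.155). It was also lost within libraries numbered 50 to 53, where the change was -0.82 (adjusted p 0.0805), and with edgeR on the recovered reads (-1.10, adjusted p 0.149).

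Notch1 had 1090, 723 and 581 normalized counts in mesentery on chow and 667, 543 and 664 on HFD. Its counts in epididymal fat were 307, 565 and 569 on chow and 322, 401 and 302 on HFD. The tissues separated on each diet, narrowly on chow, where replicate C of mesentery (581) was just above replicate C of epididymal fat (569). The log2 change was -0.74 on chow (95% interval -1.33 to -0.14, adjusted p 0.105, limma) and -0.88 on HFD (-1.47 to -0.28, adjusted p 0.0723). Neither passed the threshold, but within libraries numbered 50 to 53 the change on chow did (-1.09, adjusted p 0.0391). Notch2 ranged from 13.4 to 86.0 normalized counts in mesentery and from 28.9 to 134 in epididymal fat. Its values on chow were 15.9, 13.4 and 35.2 in mesentery against 51.7, 49.5 and 89.9 in epididymal fat. These did not overlap, and the log2 change of 1.59 (SE 0.69) had an adjusted p of 0.167 (limma).

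The ligands divided by level and by tissue pattern. In epididymal fat Jag2 had 704, 575 and 486 normalized counts on chow and 278, 571 and 390 on HFD. In mesentery Jag2 had 1430, 1352 and 514 on chow and 1439, 1009 and 665 on HFD. Only mesentery replicate C on chow lay within the epididymal range of that diet. The log2 change was -0.78 on chow (SE 0.39, adjusted p 0.243, limma) and -1.32 on HFD (SE 0.39, adjusted p 0.0572). Without mesentery replicate C, the change on chow was -1.26 with an adjusted p of 0.0233, and 5 of the 10 genes passed (Notch1, Notch4, Jag2, Hey1 and Heyl) in place of 2. The count over all genes then was 3305 in place of 2843. Within libraries numbered 50 to 53 the change of Jag2 on chow was -1.13 (adjusted p 0.0143). On HFD Jag2 passed without mesentery replicate C (-1.61, adjusted p 0.0362) or epididymal replicate B (-1.58, adjusted p 0.0492).

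Dll4, the ligand of the arterial and sprouting endothelium, overlapped between tissues. It had 1951, 2288 and 1523 normalized counts in mesentery on chow and 1623, 1982 and 1235 in epididymal fat on chow. On HFD it had 1549, 1332 and 1151 in mesentery and 684, 1558 and 1092 in epididymal fat. The log2 tissue changes of -0.26 (95% interval -0.86 to 0.35) and -0.34 (-0.95 to 0.26) did not pass. Dll1 ranged from 161 to 289 normalized counts in mesentery and from 151 to 301 in epididymal fat. Jag1, a ligand that also signals to mural cells, ranged from 143 to 365 and from 161 to 321. The log2 tissue changes of Dll1 were 0.37 and 0.03 and those of Jag1 0.05 and -0.01, on chow and HFD. Their intervals reached at most 0.99 upward (Dll1 on chow) and -0.68 downward (Jag1 on HFD). Within libraries numbered 50 to 53, Dll1 passed on chow (0.78, adjusted p 0.0367, limma).

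**Figure D2:**
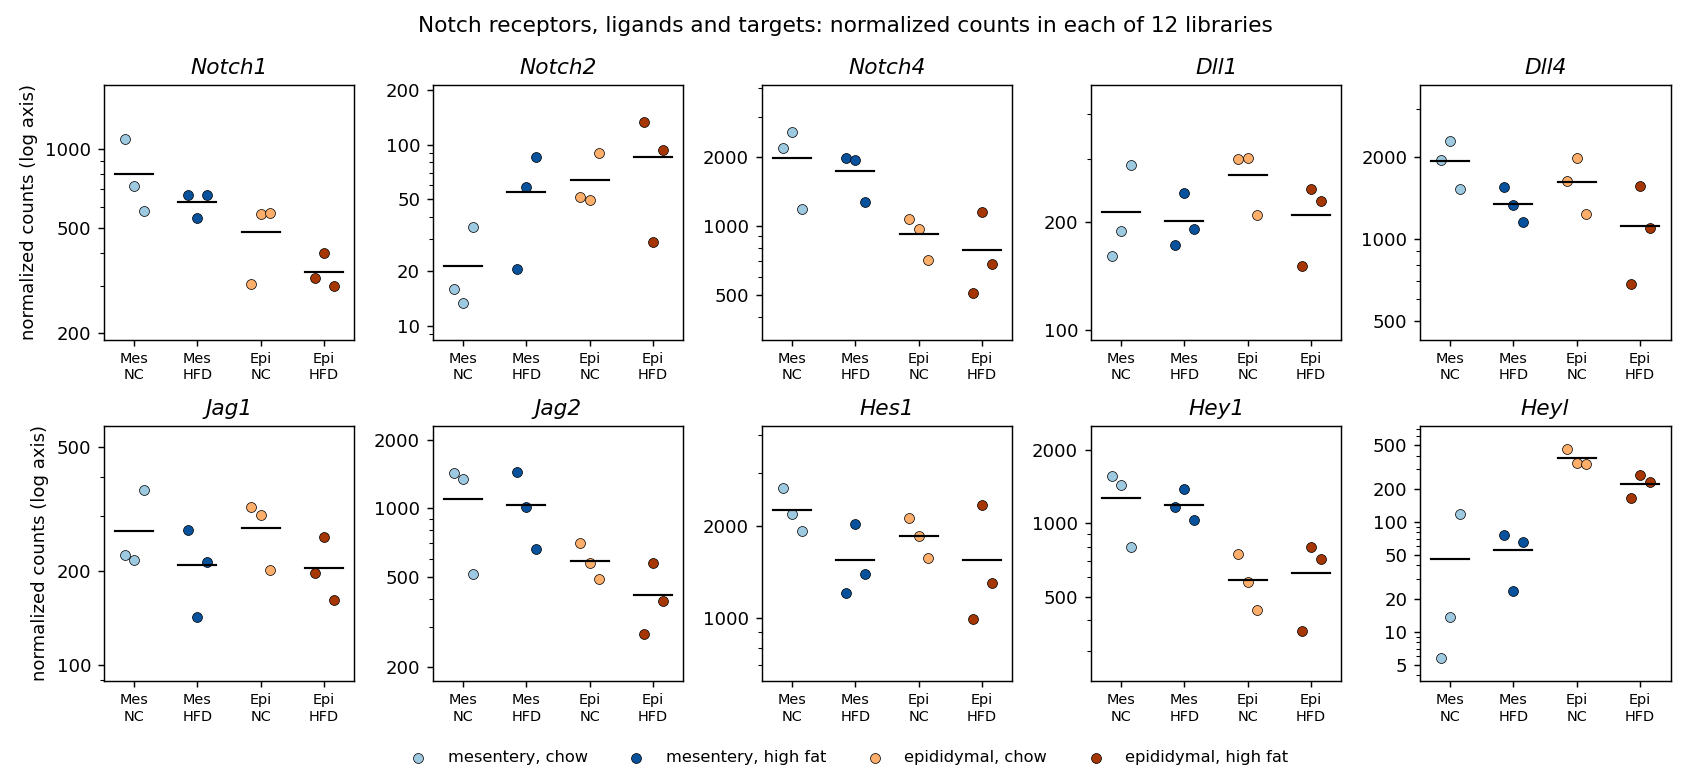
Normalized counts (y, log axis, own scale in each panel) of the 10 genes in mesentery (Mes) and epididymal fat (Epi) on chow (NC) and HFD (HFD); points are libraries A, B and C from left to right and bars are means of 3. Notch4 and Hey1 are lower and Heyl higher in epididymal fat, while Dll4, Dll1, Jag1 and Hes1 overlap between tissues.

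The 3 targets went different ways between tissues. Hey1, which encodes an arterial repressor, had 1560, 1440 and 797 normalized counts in mesentery on chow and 747, 574 and 441 in epididymal fat on chow. On HFD Hey1 had 1162, 1375 and 1035 in mesentery and 362, 801 and 713 in epididymal fat. Every mesentery library was above every epididymal library on the same diet. The log2 change was -1.08 on chow (SE 0.32, adjusted p 0.0433, limma) and -0.998 on HFD (SE 0.32, adjusted p 0.0791). The call on chow held without mesentery replicate C (-1.38, adjusted p 0.0105) and within libraries numbered 50 to 53 (-1.19, adjusted p 0.00397). It was lost without mesentery replicate A (-0.90, 0.171) or B (-0.96, 0.131), or without epididymal replicate A (-1.27, 0.0544), B (-1.08, 0.118) or C (-0.89, 0.112). EdgeR gave Hey1 an adjusted p of 0.106 and DESeq2 one of 0.0110 on the recovered reads.

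Heyl moved in the opposite direction to Hey1. It had 5.69, 13.4 and 118 normalized counts in mesentery on chow, which are 5, 15 and 84 reads, and 465, 344 and 334 in epididymal fat on chow. The epididymal libraries were close together and the mesentery libraries far apart. The log2 change of 4.06 (SE 0.80, adjusted p 0.00483, limma) is a 16.7-fold difference on the scale of normalized counts plus 1. Heyl passed in all 19 other settings tried on chow, with log2 changes of 3.07 to 5.35. DESeq2 and edgeR on the recovered reads gave the lowest, 3.07 and 3.17. On HFD Heyl had 75.8, 23.6 and 65.2 normalized counts in mesentery and 166, 268 and 232 in epididymal fat. These groups did not overlap either, with a log2 change of 2.13 (SE 0.80, adjusted p 0.133). Within libraries numbered 50 to 53, Heyl on HFD was higher by 2.64 (adjusted p 0.0150). Hes1, a target in many cell types, had 2666, 2193 and 1936 normalized counts in mesentery on chow against 2128, 1863 and 1577 in epididymal fat. On HFD it had 1210, 2030 and 1400 in mesentery against 997, 2357 and 1306. Its log2 tissue changes of -0.29 (adjusted p 0.603) and -0.05 (adjusted p 0.963, both limma) lay within 1 SE.

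The order of the 4 group means showed the same split. Notch1, Notch4 and Jag2 all ran from mesentery on chow, through mesentery on HFD and epididymal fat on chow, to epididymal fat on HFD. Neighbouring groups in that order overlapped, except that mesentery on HFD and epididymal fat on chow did not overlap for Notch4. Hey1 had the mesentery groups first as well, and mesentery on HFD did not overlap with epididymal fat on HFD. Heyl had epididymal fat on chow first, then epididymal fat on HFD, with no overlap between them or with the mesentery groups. For Dll1, Dll4, Jag1 and Hes1 all neighbouring groups overlapped. Across the 12 libraries the log2 levels of Notch4 ran with those of Jag2 (Pearson's r 0.96) and Hey1 (0.94), and Dll4 ran with Hes1 (0.78). Heyl ran against Hey1 (-0.81) and Notch4 (-0.78). These correlations describe 12 libraries that share 4 groups, and they carry no test.

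Most genes of the pan-endothelial list were also lower in epididymal fat. Of the 13 pan-endothelial genes, 7 were lower and 1 higher past the threshold on chow (median log2 change -0.94), and 9 were lower and 1 higher on HFD (median -1.07). Of all genes, 12.8% and 8.34% passed. The only gene higher past the threshold was Cldn5, a tight junction gene, on both diets. Regardless of the threshold, 9 estimates were lower and 4 higher on chow, and 11 were lower and 2 higher on HFD. Cdh5, the gene that controls the Cre, did not fall with most of the list. Its mesentery mean on chow was 3842 ± 1097 normalized counts, beside 3804 ± 640 for epididymal fat (SD, n = 3). On HFD these means were 2835 ± 138 and 3120 ± 1320. Lists of endothelial subtypes went otherwise. Of 9 venous genes, 4 were higher and 1 lower in epididymal fat past the threshold on chow (median log2 change 1.33). On HFD 0 were higher and 1 lower (median 0.72). Of 11 capillary genes, 3 were higher and 2 lower on chow (median 0.45), and 2 were higher and 2 lower on HFD (median -0.15). The same shares of all genes stand beside these counts. Over the 12 libraries the mean log2 level of the 13 genes ran with Notch4 (Pearson's r 0.91), Jag2 (0.88), Notch1 (0.84), Hey1 (0.81) and Dll4 (0.81). In such bulk samples fewer cells of a type and less RNA per cell cannot be told apart. With the libraries rescaled to the geometric mean of the 13 genes, which moves the median over all genes to 0.38 on chow and 0.91 on HFD, Hey1 was at -0.59 on chow (adjusted p 0.123) and at -0.14 on HFD. Notch4 was then at -0.57 and -0.34, Jag2 at -0.29 and -0.46 and Notch1 at -0.25 and -0.02, and none of these passed (limma). Heyl kept its direction at 4.51 (adjusted p 0.00175) on chow and passed on HFD at 2.98 (adjusted p 0.0143). Dll4 changed sign, to 0.23 on chow and to 0.52 on HFD (adjusted p 0.0420), where Dll1 at 0.89 (0.0497) and Hes1 at 0.80 (0.0126) passed as well. These values lie near or below the median of all genes on that scale, except those of Heyl, Notch2 (2.05 and 1.44) and, on chow, Dll1 (0.86) and Jag1 (0.54). The tissue estimates of Notch4, Notch1, Jag2 and Hey1 thus changed with the scaling. What part the share of endothelial RNA has in them was not tested.

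**Figure D3:**
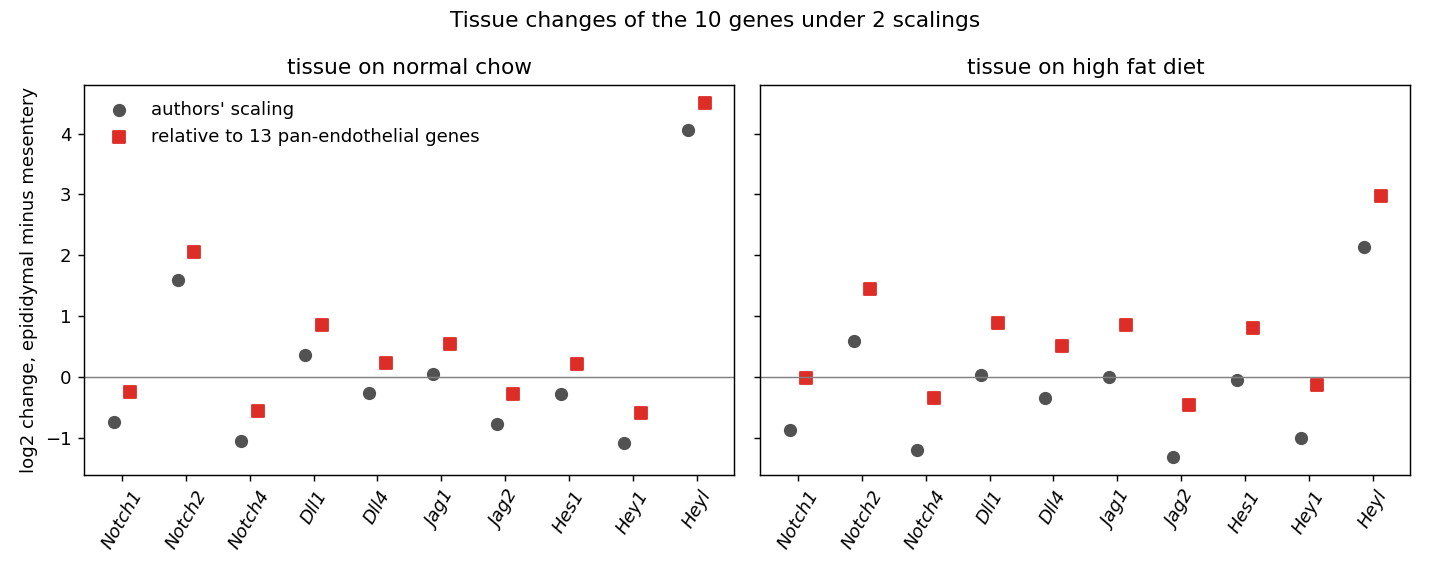
Log2 change between tissues (y, epididymal minus mesentery; points are limma estimates from 3 libraries a group) for each gene on chow (left) and HFD (right), with the authors' scaling (circles) and relative to 13 pan-endothelial genes (squares). Heyl stays high on both scales, Notch4 moves from -1.20 to -0.34 on HFD, and Dll4 changes sign on both diets.

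Heyl and the mural receptor Notch3 were higher in the same libraries as mural cell genes. Notch3 had 19.4, 11.6 and 46.5 normalized counts in mesentery on chow and 186, 220 and 193 in epididymal fat on chow. On HFD it had 36.5, 2.77 and 67.2 in mesentery and 120, 134 and 87.1 in epididymal fat. The log2 change of Notch3 was 3.12 on chow (SE 0.85, adjusted p 0.0287, limma) and 2.41 on HFD (adjusted p 0.110). A mural list of 12 genes, Notch3 among them, had 10 genes higher in epididymal fat past the threshold on chow (median log2 change 3.43) and 6 on HFD (median 2.39), with none lower (12.8% and 8.34% of all genes passed). They include Pdgfrb, a pericyte receptor (5.25 and 3.31), and Acta2, smooth muscle actin (4.79 and 2.47). No mural gene was at 0 in any library. The summed mural list had 1903, 1647 and 1881 normalized counts in mesentery on chow, and 28272, 26952 and 18220 in epididymal fat on chow. On HFD it had 4073, 2297 and 4804 in mesentery and 7974, 14823 and 11790 in epididymal fat. Over the 12 libraries the log2 level of Heyl ran with the mean log2 level of the 12 mural genes (Pearson's r 0.87).

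The mean log2 level of 8 lymphatic endothelial genes, 2 of them at 0 in at least 1 library, also ran with Heyl (r 0.88). That of the macrophage list did so less closely (r 0.72). The sum of the 8 lymphatic genes was 1332, 1524 and 13089 normalized counts in mesentery on chow, and 37811, 34777 and 22761 in epididymal fat on chow. On HFD it was 2818, 4804 and 3277 in mesentery and 18214, 16575 and 11858 in epididymal fat. Ccl21a alone averaged 28206 in epididymal fat on chow. Of the 8 genes, 5 were higher and 1 lower in epididymal fat past the threshold on chow, and 0 were higher and 1 lower on HFD. Of all genes, 12.8% and 8.34% passed. The lower gene was Flt4 (log2 change -0.80, adjusted p 0.0231, and -0.91, adjusted p 0.0168, limma). Mesentery replicate C on chow, the mesentery library with the highest Heyl (118), had the highest lymphatic sum of the mesentery libraries. Its mural sum of 1881 was like those of replicates A and B. Rgs5 alone averaged 840 of that sum in mesentery on chow. The mural gene Notch3 was higher in replicate C (46.5) than in A (19.4) and B (11.6). The macrophage sum of replicate C was 8110, against 1627 and 1766 for A and B. The part that mural, lymphatic or other cells have in the Heyl level was not tested.

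**Figure D4:**
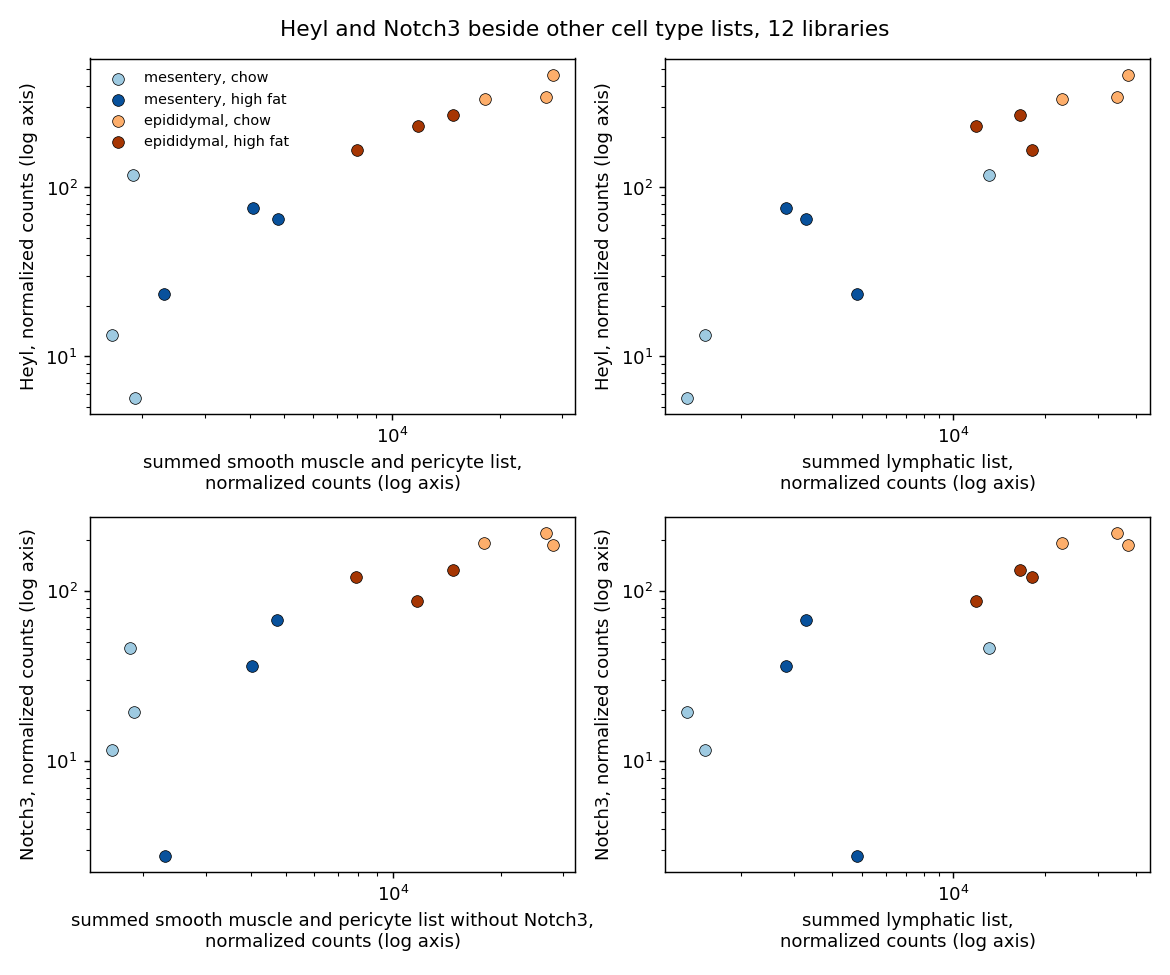
Normalized counts of Heyl (top) and Notch3 (bottom) against the summed mural list (left, without Notch3 in the lower panel) and the summed lymphatic list (right) in the same library, all axes logarithmic; each point is 1 of 12 libraries and colours give the groups. Epididymal libraries lie at the upper right of the mural panels. In the lymphatic panels they lie highest, but 1 mesentery chow library has a sum (13089) above that of epididymal replicate C on HFD (11858). That mesentery library, with 118 counts of Heyl, has a low mural sum.

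The high fat diet changed none of the 10 genes past the threshold in either tissue. In mesentery 0 of 10 genes passed, against 0.0135% of all genes tested, and at an unadjusted p under 0.05 again 0 of 10, against 6.15%. In epididymal fat 0 of 10 passed, against 0.549% of all genes, and unadjusted 0 of 10, against 6.94%. EdgeR and DESeq2 on the recovered reads also called 0 of 10 in both tissues. In each tissue 8 of the 10 estimates were below 0. The median log2 change, HFD minus chow, was -0.10 in mesentery and -0.40 in epididymal fat, beside -0.0023 and 0.10 over all genes.

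Dll4 came nearest to the threshold in epididymal fat. Its values there, given above, lay between 1235 and 1982 on chow and between 684 and 1558 on HFD, so the groups overlapped. The log2 change of Dll4 was -0.59 (95% interval -1.19 to 0.01, adjusted p 0.748, limma) in epididymal fat and -0.51 (-1.11 to 0.10, adjusted p 0.881) in mesentery. Without epididymal replicate A on HFD the former was -0.28. Hes1 had a log2 change of -0.57 in mesentery (-1.19 to 0.05, adjusted p 0.854) and -0.34 in epididymal fat (-0.96 to 0.28). The epididymal estimate was -0.07 without HFD replicate A and -0.69 without HFD replicate B. For Notch4 the diet estimates were -0.15 and -0.29, and for Hey1 -0.04 and 0.04, in mesentery and epididymal fat. The intervals for Hey1, -0.73 to 0.66 and -0.65 to 0.74, include 0. Heyl in epididymal fat was the only one of the 10 genes whose diet groups did not overlap, from 334 to 465 normalized counts on chow and from 166 to 268 on HFD. Of all genes, 13.5% did not overlap there. Its log2 change was -0.79 (-2.52 to 0.94, limma), and the summed mural list had 18220 to 28272 on chow and 7974 to 14823 on HFD. In mesentery the estimate for Heyl was 1.15 (-0.58 to 2.88). It was 0.27 without chow replicate A and 2.35 without chow replicate C, and edgeR and DESeq2 gave 0.37 and 0.28. There 0 of 10 genes separated the diets, and 9.61% of all genes did.

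The pan-endothelial list had estimates below 0 beside those of the 10 genes in epididymal fat. Of its 13 genes 12 had estimates below 0 and 0 passed, with a median log2 change of -0.61. Relative to that list the median of the 10 genes was 0.13 in epididymal fat, beside 0.63 over all genes, and 0.06 in mesentery, beside 0.14. The median of the 10 genes was thus below that of all genes in each tissue. The rescaling shifts all genes of a contrast by nearly the same amount, so the second scale is no separate evidence for this.

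**Figure D5:**
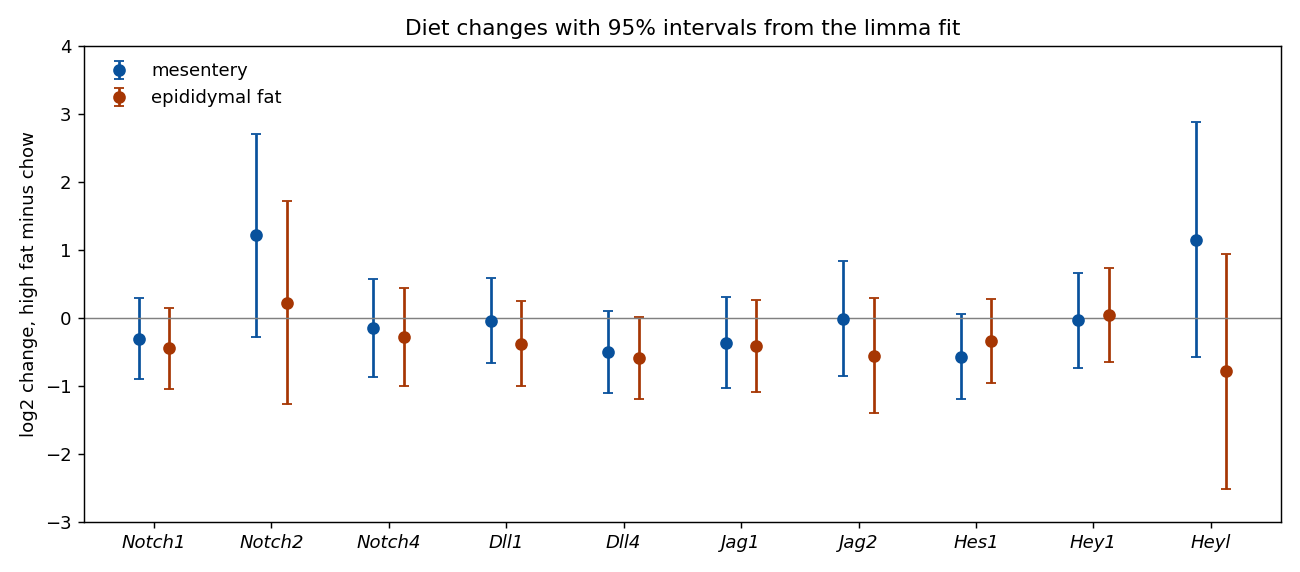
Log2 change with HFD (y, high fat minus chow, authors' scaling) for the 10 genes in mesentery (blue) and epididymal fat (brown); points are limma estimates from 3 libraries a group and bars 95% intervals. All 20 intervals include 0.

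The difference between the tissues' diet effects passed for 0 of the 10 genes, against 0.00450% of all genes (unadjusted 0 of 10, against 4.71%). Heyl had the largest estimate, a log2 difference of -1.93 with a 95% interval of -4.38 to 0.51. For Dll4 the difference was -0.08 (-0.94 to 0.77), and for Hey1 0.08 (-0.90 to 1.07).

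Other genes of the pathway were described from a list of 66, of which 60 were tested. On chow 6 were higher and 13 lower in epididymal fat past the threshold, and on HFD 3 were higher and 4 lower. That was 19 of 60 genes on chow and 7 on HFD, against 12.8% and 8.34% of all genes. The same shares of all genes stand beside the smaller lists below. With diet 0 of 60 passed in each tissue, a count near the shares of all genes (0.0135% in mesentery and 0.549% in epididymal fat). The median log2 tissue change of the list was -0.09 on chow and on HFD. Among 19 genes that process receptors and ligands, 2 were higher and 4 lower on chow, and 2 were higher and 0 lower on HFD. Psen2, a subunit of the gamma-secretase that releases the inner part of the receptor, was higher on both diets: 675 ± 51.8 against 235 ± 19.4 normalized counts on chow (SD, n = 3) and 827 ± 30.1 against 294 ± 37.9 on HFD. Its log2 changes were 1.52 (adjusted p 8.87e-05) and 1.497 (adjusted p 0.00014, limma). Aph1c, of the same enzyme, was higher on HFD (2.94, adjusted p 0.0127). It had 615 ± 231 normalized counts in epididymal fat against 90.7 ± 66.0 in mesentery.

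Of 11 inhibitors and modifiers of the pathway, 1 was higher and 2 were lower on chow, and 1 was higher and 1 lower on HFD. Numb, which antagonises Notch receptors, was lower in epididymal fat on both diets. Numb averaged 600 ± 79.4 normalized counts against 1832 ± 424 in mesentery on chow (log2 change -1.59, adjusted p 0.000405) and 585 ± 123 against 1858 ± 322 on HFD (-1.67, adjusted p 0.000404, limma). Dtx4, of the Deltex family, was higher, by 2.08 and 1.80. Of 16 nuclear cofactors, 0 were higher and 5 lower on chow, among them the corepressor Tle3 (-1.17, adjusted p 0.0303). On HFD 1 was lower. Rbpj itself did not pass (0.44, adjusted p 0.369, and 0.78, adjusted p 0.113).

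Among 10 other listed targets, 1 was higher and 2 were lower on chow, and 0 were higher and 2 lower on HFD. Myc, a growth regulator, was higher on chow (2.32), and Gata2 (-1.41) and Snai2 (-1.37), which encode transcription factors, were lower on HFD. Snai2 was lower on chow too (-1.03, adjusted p 0.0160, limma). Nrarp, a feedback inhibitor induced by Notch, lay at 0.04 and 0.20 and did not pass. Hey2 lay at -0.43 and -1.25 and did not pass either.

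Of 21 genes of arterial endothelium, 3 were higher and 4 lower in epididymal fat on chow, and 3 were higher and 3 lower on HFD. Of all genes, 12.8% passed on chow and 8.34% on HFD. With diet 0 of 21 passed in each tissue, a count near the shares of all genes (0.0135% in mesentery and 0.549% in epididymal fat). Of the 21 diet estimates, 15 were lower and 6 higher in epididymal fat (median log2 change -0.44, beside 0.10 over all genes). In mesentery 11 were lower and 10 higher (-0.03, beside -0.0023). Efnb2, an arterial ligand regulated by Notch, had 2269, 2770 and 902 normalized counts in mesentery on chow and 569, 804 and 519 in epididymal fat (log2 change -1.53, SE 0.34, adjusted p 0.0106, limma). On HFD its change was -1.13 (adjusted p 0.0602). Gja5, an arterial connexin, ran the other way, with 292, 243 and 489 against 1447, 947 and 777 on chow (1.64, SE 0.36, adjusted p 0.00868). On HFD Gja5 was higher by 1.40 (adjusted p 0.0289). Gkn3, an arterial marker of mice, was higher by 3.75 and 2.02 on chow and HFD. The matrix gene Fbln2 (log2 changes -1.67 and -1.21) and the phosphatase gene Alpl (-1.14 and -2.12) were lower past the threshold on both diets. Gja4, another arterial connexin, and Sox17, an arterial transcription factor, did not pass (-0.26 and -0.68 for Gja4, -0.24 and -0.25 for Sox17). Arterial genes therefore passed in both directions within each tissue contrast.

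The genes whose log2 levels over the 12 libraries were most like those of 3 of the genes were sought among 10190 genes whose mean reached 100. For Dll4 they were Ctdsp2, Ano6 and Arl13b (Pearson's r 0.94, 0.92 and 0.91), and for Hey1 they were Swap70, Ccnl2 and Mgat1 (all 0.97). For Heyl they were Lrg1, which is also on the list of venous genes, Snrpn and Nos2 (all 0.98). These values are descriptions over libraries that share groups and scaling.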

How the data were processed

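The authors' deposited table holds DESeq2-normalized counts per gene, a signal made from paired 150-base reads with STAR 2.7.9a, featureCounts (Subread), DESeq2 1.34.0 and build mm39, per the submitters' processing notes. Annotation and strand use are not given in the sources used here. All values (100%) were whole reads times 1 step per library (tolerance 1e-06). The members and lists were chosen with earlier results of these data known. Groups come from the sample titles. Genes averaging 10 or more across the 12 libraries were tested with limma 3.58.1 in R 4.3.3 (lmFit, eBayes with a trend) on log2(normalized count + 1), with 4 group means and 5 contrasts. P-values were adjusted by Benjamini-Hochberg over all 22238 genes. Fold changes of low genes depend on the scale and the model. For Heyl between tissues on chow, edgeR and DESeq2 gave log2 changes of 3.17 and 3.07, beside 4.06 here. Alternatives were 2 pseudocounts, 2 filters, 3 scalings, subsets of libraries, a range covariate, a replicate block, edgeR 4.0.16, DESeq2 1.42.0 and single libraries left out. The pan-endothelial scaling was chosen after seeing the data. Scripts were tested on simulated data. Exon lengths came from GENCODE M21 and promoters from RefSeq, both on GRCm38, not mm39. Beside the 10 genes, the text names up to 4 genes each way per contrast past the threshold that reach a mean of 100 in their higher group, and some pathway, arterial and marker genes.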

Additional observations from a re-analysis of the deposited data

How the results depend on the processing

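The diets and the interaction had 0 of the 10 genes called in every setting tried. The tissue counts were less stable. On chow, 2 genes passed, against 1 with no filter on low values, with TMM factors, with the pan-endothelial scaling, with only the libraries of the groups compared and with edgeR, and 6 within libraries numbered 50 to 53, where 4507 of all genes passed in place of 2843. On HFD, 1 passed, against 3 with a mean of at least 50 or the number range as a covariate (2161 and 2437 of all genes, in place of 1854). There 4 passed with the same total or DESeq2 (Notch1, Notch4, Jag2 and Hey1, all lower; 1962 and 2901 of all genes) and with the groups compared alone (Notch1, Notch4 and Jag2 lower, Heyl higher; 1704). Another 4 passed with the pan-endothelial scaling (Dll1, Dll4, Heyl and Hes1, all higher; 7006), and 0 with TMM factors or edgeR (1344 and 1021). Leaving out 1 library gave 1 to 5 genes on chow and 0 to 2 on HFD. Notch4 on chow, which missed the threshold in the main fit, passed in 7 of 19 alternatives. Among these were a mean of at least 50 (adjusted p 0.0375, limma), the same total (0.0302) and the number range as a covariate (0.0226). DESeq2 gave 0.0144. Of all genes, 3062, 2876, 3706 and 3904 passed on chow in these 4 settings. Of 50 changes (10 genes, 5 contrasts), the 27 larger than their SE were compared with 523 alternative values: 468 kept direction and side of the threshold, 31 newly passed, 18 no longer passed and 6 changed sign. Values that missed the threshold in both fits count as kept. The 23 changes within 1 SE were left out of this count. Among those, the tissue changes of Jag1 and Hes1 on HFD each changed sign in 7 of 19 alternatives. Under the pan-endothelial scaling, which moves the median of all genes from 0.10 to 0.63 for the diet in epididymal fat and from 0.06 to 0.91 between tissues on HFD, the diet changes in epididymal fat became 0.0787 (Notch1), 0.15 (Dll1), 0.10 (Jag1) and 0.19 (Hes1), and the tissue change of Dll4 on HFD became 0.52. All 5 lie below those medians. The change of Dll4 was 0.0753 within libraries 50 to 53, whose cause was not tested. The labels do not say that a shared number or letter marks shared animals, and deviations of libraries with a shared number correlated by 0.03 to 0.58 on chow (5 of 6 libraries best with their own number) and by -0.15 to 0.15 on HFD. With a replicate block, 3 of 10 genes passed on chow (Heyl, Hey1 and, with adjusted p 0.0199, Notch4) and 3 on HFD (Notch4, Jag2 with 0.0340 and Hey1 with 0.0264). Scaling to the same total moved the share of higher calls over all genes from 57.2% to 67.3% on chow and from 58.9% to 35.3% on HFD. Mesentery libraries with 5 to 84 reads of Heyl limit the precision of its fold.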
